A study of Mus musculus with 8 samples.

Results

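Csmd1, Csmd2 and Csmd3 are 3 related, very long genes, and 50 of the 134407 ATAC-seq peaks of the table lay inside one of them or within 20 kb of its ends. The family was chosen from measured values: 1 peak inside Csmd2 was among the largest rises in paused cells. The peaks themselves were taken by position alone, 17 for Csmd1, 19 for Csmd2 and 14 for Csmd3. The paused against control values of Csmd2 are therefore given as a description, and those of the other 2 genes, read from the same comparison, support nothing beyond themselves. ATAC-seq marks open chromatin by letting the Tn5 transposase insert adapters into it. The cells were E14, a wild-type mouse embryonic stem cell line grown on gelatin in serum and LIF. There were 4 control samples and 4 paused samples, given INK128 at 200 nM for 24 h. INK128 inhibits the kinase mTOR and is used to bring on a state like developmental pausing. Each library was made from 50000 live cells, and what the control samples received in place of the drug is not given in the sources used here. Since 1 line was used and nothing says how the replicates were grown, p-values measure the spread between these samples, which may be technical.

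The CSMD proteins carry long rows of CUB and sushi domains, the second also called complement control domains, on the outside of the cell, followed by a membrane span and a short tail. Sushi domains are typical of proteins that hold the complement cascade in check, and Csmd1 is known as a complement inhibitor. All 3 genes are best known from the developing and adult nervous system, and Csmd3 has been linked to the growth of dendrites. Accessibility within such a gene can mark regulatory sites of the gene or of a neighbour, and the data here do not measure transcription.

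Whole reads could be worked back from the scaled values, and each library had between 4434037 and 21161767 of them in peaks, with control replicate 1 the deepest. The median tested Csmd peak held 83 reads there and 14.5 in control replicate 3, the shallowest. No replicate pair matched within counting error of the reads (chi-square over degrees of freedom at least 1.09), so all 8 were kept as separate samples. Of 8 embryonic stem cell markers, 7 had a peak within 2 kb of a gene end, with Dppa5a the exception. So did 7 of 8 neural and neuronal, 6 of 6 fibroblast, 3 of 4 endoderm and 4 of 4 trophoblast markers, so that a peak at a gene end does not tell these cell types apart. The summed value of the stem cell markers was 1274 to 1380 in control and 1449 to 1699 in paused samples, with no overlap. Of these markers, Zfp42 (means 207 and 273) and Esrrb (24.5 and 51.1) were called higher, and the others were not called. For the neural list the ranges overlapped, at 1037 to 1148 and 1087 to 1254. They also overlapped for fibroblast (381.0 to 514 and 464 to 523) and endoderm markers (323 to 379 and 344 to 399). The trophoblast sums did not, at 444 to 503 and 529 to 589, beside a sum over the whole table that was 11.5% more in paused samples. Of these 4 genes Tfap2c alone was called (means 68.85 and 103), and Cdx2, Eomes and Elf5 were not. The part of cell makeup in the results below was not tested. In bulk samples, more cells with an open site and a more open site in each cell cannot be told apart.

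Csmd1 and Csmd3 held fewer peaks per Mb than most long genes, and Csmd2 held more. Csmd1 spans 1643 kb on chromosome 8 (15892538 to 17535385, GRCm38.p6), Csmd2 581 kb on chromosome 4 (127986505 to 128567660) and Csmd3 1212 kb on chromosome 15 (47580638 to 48792558). Csmd1 held 16 peaks inside its span, or 9.74 per Mb, and Csmd3 held 11, or 9.08 per Mb. Csmd2 held 15 peaks, or 25.8 per Mb. The other 161 protein-coding genes at least as long as Csmd2 had a median of 18.7 peaks per Mb. In descending order of density among these 164 genes, Csmd2 was at place 53, Csmd1 at 133 and Csmd3 at 137, so that 27 long genes were sparser than Csmd3. Inside the genes, neighbouring peaks lay a median of 76.5 kb apart in Csmd1, 30.7 kb in Csmd2 and 113 kb in Csmd3. The widest stretch with no peak was 296 kb in Csmd1, 185 kb in Csmd2 and 309 kb in Csmd3.

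None of the 42 peaks inside the genes had its centre in another annotated gene, although Hmgb4 lies within Csmd2 and C030002A05Rik within Csmd1. Of the 8 peaks in the flanks, 5 did. The peak starting at 127971322, 15083 bp below Csmd2, was inside CK137956 and the non-coding gene Gm38571, and that at 127984607 was inside CK137956. The peaks at 128579272 and 128585680 above Csmd2 were inside Zscan20, a zinc finger gene, and the peak at 48792855 above Csmd3 was inside the non-coding gene Gm34336. The gene table lists spans without exons or strand, so that exon and intron, and start and end of transcription, were not analysed here. The 20 kb limit fell in gaps between peaks. The outermost peaks counted were the Csmd3 peak at 47562374, 18164 bp from the gene (log2 change 0.38), and the Csmd2 peak at 128585680, 18120 bp away (-0.01). The nearest peaks left out were 21708 bp above Csmd2 (-0.62) and 25379 bp below it (0.42).

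Paused and control samples were compared peak by peak with limma-trend on log2(value + 1), where a value is the number of reads in the peak divided by 1 factor per sample. A peak was called when its Benjamini-Hochberg adjusted p, over the 127402 peaks whose mean value reached 10, was under 0.05. Of the 50 Csmd peaks, 46 passed that minimum. The 4 that did not had means of 2.335 and 0.395 (control and paused; Csmd2, start 128025036), 7.57 and 11.3 (Csmd1, 15982619), 11.4 and 7.20 (Csmd3, 47601126), and 5.07 and 3.59 (Csmd3, 48397540). The peak at 128025036 had 0 reads in 4 of the 8 libraries, where a count of 0 allows up to 3 reads, a value of 4.41 in control replicate 4, 3.46 in paused replicate 1, 4.65 in paused replicate 3 and 3.51 in paused replicate 4.

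Of the 46 tested peaks, 10 were called and all 10 were higher in paused samples. By gene, these were 2 of 16 in Csmd1, 5 of 18 in Csmd2 and 3 of 12 in Csmd3. The Csmd2 calls include the peak that led to the choice of the family. Of all tested peaks 13.9% were called, 11.0% higher and 2.91% lower. The 4 paused values all lay above the 4 control values at 4 tested peaks of Csmd1, 3 of Csmd2 and 3 of Csmd3, against 13.0% of all tested peaks. They all lay below them at 1 peak of Csmd2 and 1 of Csmd3, against 4.36% of all. The median log2 change was 0.25 in Csmd1, 0.39 in Csmd2 and 0.23 in Csmd3, beside 0.10 over all tested peaks. Of the changes, 34 of 46 were above that overall median, 11 in Csmd1, 13 in Csmd2 and 10 in Csmd3. Under TMM rescaling of the reads, which set the median of all peaks to -0.01, the median changes of the genes became 0.15 in Csmd1, 0.29 in Csmd2 and 0.12 in Csmd3. Peaks of 1 gene are not replicates of each other.

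**Figure D1:**
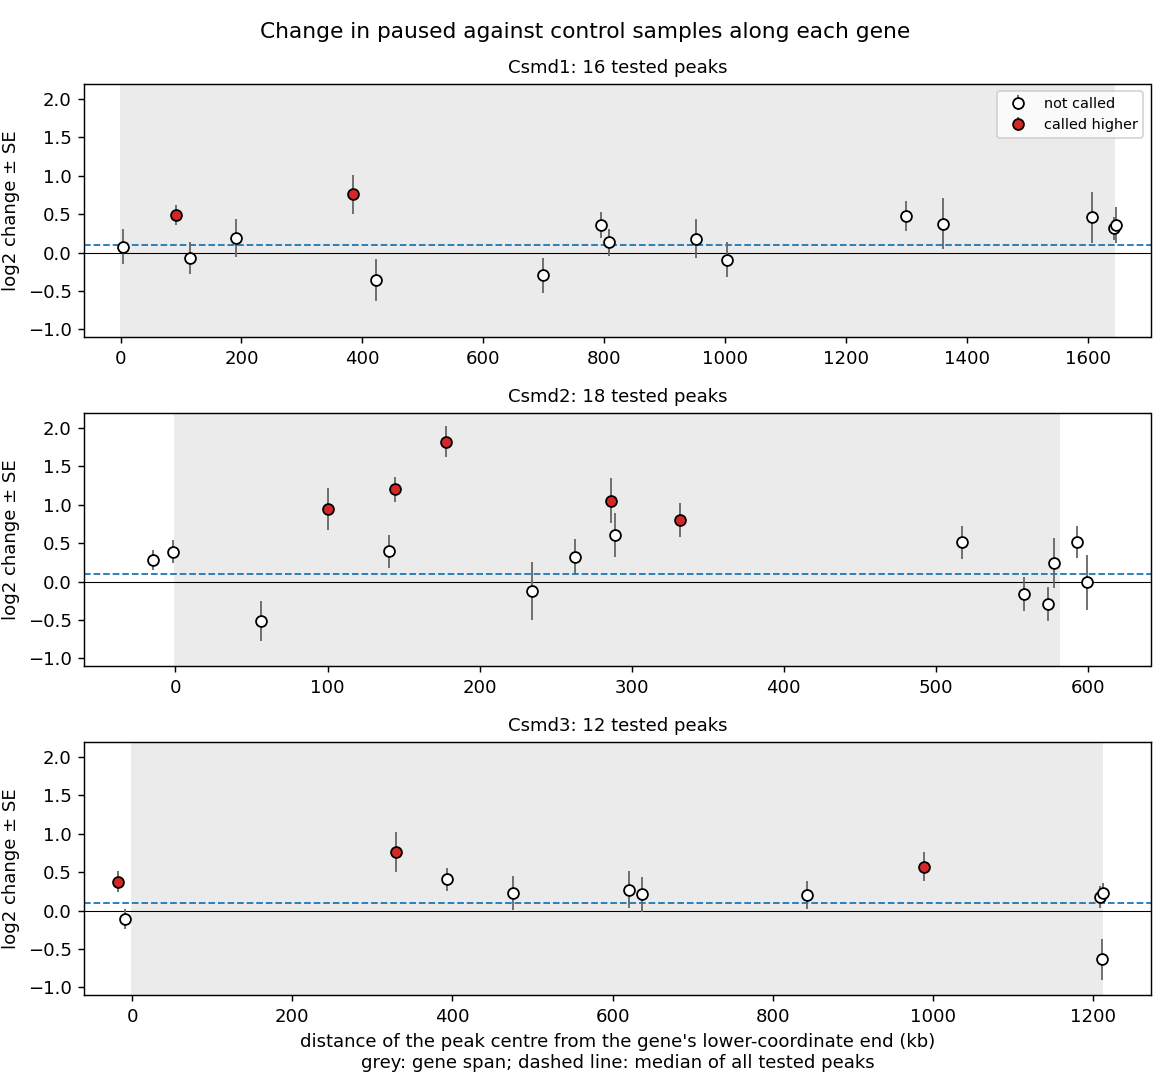
Log2 change of each tested peak (points, with the standard error as bars) against its distance in kb from the lower-coordinate end of Csmd1, Csmd2 or Csmd3; red points were called, grey marks the gene span and the dashed line is the median of all tested peaks, 0.10. The 5 called peaks of Csmd2 lie between 100.6 and 331.6 kb, while the called peaks of Csmd1 and Csmd3 are fewer, with log2 changes of at most 0.76.

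All called peaks of Csmd2 lay in a stretch of 231 kb. From the first to the last called peak there were 9 tested peaks, of which 5 were called and 8 had a change above 0. None of the other 9 tested peaks of Csmd2 was called. The stretch was drawn from the values themselves and is a description. It surrounds Csmd2os, a non-coding gene of 29529 bp (128134652 to 128164180), with the largest and the second largest change of the family near its 2 ends, 33.4 kb apart.

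The largest change, and the one that led to the choice of the family, was at the peak on chromosome 4 from 128164127 to 128164327, 177.7 kb inside Csmd2. Its 54 bases of lowest coordinate are the 54 of highest coordinate in Csmd2os, and its centre lies 47 bp above that gene's upper-coordinate end. Which end of Csmd2os is its start was not analysed. The control values were 32.5, 33.4, 13.55 and 22.0 in replicates 1 to 4, and the paused values 88.8, 75.7, 85.3 and 100.8. The lowest paused value, 75.7, lay far above the highest control value, 33.4, and control replicate 3 was the lowest of all. These came from 94, 28, 8 and 15 reads in the control libraries and 77, 48, 55 and 86 in the paused ones. The mean went from 25.4 ± 9.43 to 87.7 ± 10.3 (SD, n = 4), a ratio of 3.45 and a log2 change of 1.82 (SE 0.20). By its mean in control samples it stood at percentile 40.3 of all peaks. It was number 21 in order of rise among all tested peaks.

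The peak from 128130682 to 128130882 had its centre 3870 bp below the lower-coordinate end of Csmd2os. Its control values were 43.6, 35.8, 27.1 and 39.7. The paused values were 78.4, 83.6, 79.1 and 96.1, all above every control value. The mean went from 36.5 ± 7.05 to 84.3 ± 8.17 (SD, n = 4), with a log2 change of 1.20 (SE 0.17). A neighbouring peak at 128126879 had means of 25.2 and 33.7 and was not called (log2 change 0.39, SE 0.21).

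The other 3 called peaks of Csmd2 were weaker in control samples. At 128087029 the control values were 16.25, 17.9, 15.2 and 7.35 and the paused values 26.5, 26.8, 24.8 and 29.3, with no overlap (log2 change 0.94, SE 0.27). The control value of 7.35 rests on 5 reads in control replicate 4, and without that library the change was 0.67 and the call was lost. It was also lost without paused replicate 4 (0.90). At 128272837 the values were 18.7, 20.3, 6.77 and 13.2 in control and 46.1, 28.4, 18.6 and 30.5 in paused samples (log2 change 1.05, SE 0.29). Here the groups overlapped, since paused replicate 3 was below control replicates 1 and 2, and the call was lost without control replicate 3 (0.75) or paused replicate 1 (0.84). At 128318049 they were 29.4, 21.5, 22.0 and 20.6 in control and 43.8, 47.3, 51.2 and 26.95 in paused samples (log2 change 0.80, SE 0.22). Paused replicate 4 lay among the control values at that peak and the other 3 paused samples lay above them. All 3 of these weaker peaks lost their call in DESeq2 (log2 change 0.77, 0.89 and 0.67 in the order given), and those at 128087029 and 128318049 also when samples were scaled to their total reads (0.79 and 0.65).

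The 13 Csmd2 peaks that were tested and not called had changes from -0.51 to 0.61. The lowest was at 128042697, where the control values were 22.8, 31.05, 22.0 and 17.6 and the paused values 16.15, 15.8, 13.96 and 17.6. The highest paused value, 17.57, was just under the lowest control value, 17.63, so the groups were separate by less than the value of 1 read. A peak 2.60 kb from the called one at 128272837, at 128275434, had means of 13.3 and 21.2 and a change of 0.61 (SE 0.29), also not called. Towards the upper end of the gene, the peaks at 128544132 and 128560432 had changes of -0.16 and -0.29 and were not called.

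**Figure D2:**
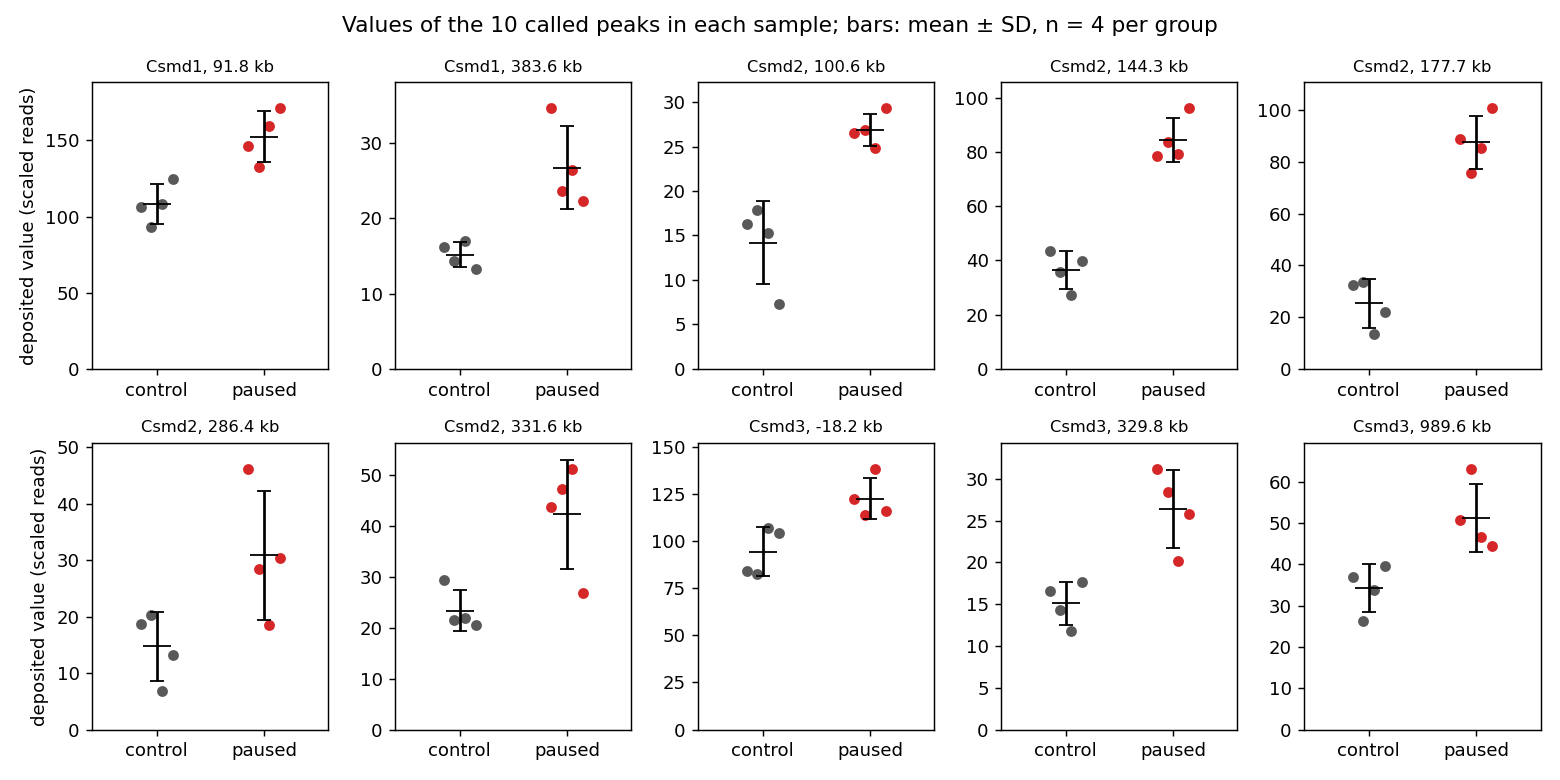
Deposited value (reads in the peak divided by 1 factor per sample) of the 10 called peaks in each of 4 control (grey) and 4 paused (red) samples, with mean and SD, named by gene and distance from its lower-coordinate end. The groups are separate at 8 of the 10 peaks and overlap at the Csmd2 peaks at 286.4 and 331.6 kb.

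In Csmd1, 2 peaks rose, both in the lower-coordinate part of the gene. The stronger is the most open peak of the gene, 91.8 kb from its lower end (chromosome 8, 15984270 to 15984470). Its control values were 106.1, 93.2, 108.4 and 124.9 and its paused values 146.5, 132.5, 159.8 and 171.05. Every paused value was above every control value, and the mean rose from 108 ± 13.0 to 152 ± 16.7 (SD, n = 4), a log2 change of 0.49 with an SE of 0.13 (limma-trend adjusted p = 0.00751). The call was lost when each sample was loess-corrected by peak strength (change 0.29, limma-trend adjusted p = 0.127), when samples were scaled to their total reads (0.34, limma-trend adjusted p = 0.0714) and in DESeq2 (0.40, adjusted p = 0.0915).

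The second Csmd1 peak, at 16276008 to 16276208, was weak, with control values of 16.25, 14.3, 16.9 and 13.2 and paused values of 34.6, 23.7, 26.4 and 22.3. The groups did not overlap (log2 change 0.76, SE 0.25, limma-trend adjusted p = 0.0379), but paused replicate 1 stood above the other 3 paused samples. The call held under 6 of the 17 alternatives that gave a value, and was lost without control replicate 1, 2 or 4 or paused replicate 1, 2 or 3. The other 14 tested peaks of Csmd1 had changes from -0.36 to 0.48 and were not called. Among them, the peak at 16686229, the third strongest of the gene, had control values from 39.7 to 59.7 and paused values of 79.6, 59.9, 62.1 and 62.1, separate by less than 1 unit (log2 change 0.36, SE 0.16, limma-trend adjusted p = 0.136). Groups were also separate at the peak at 17190417 (means 30.4 and 43.6, log2 change 0.48, SE 0.20).

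In Csmd3, 3 peaks were called, each with an adjusted p close to the threshold. The one at 47910353 (chromosome 15, to 47910553) had control values of 16.6, 14.3, 11.85 and 17.6 and paused values of 31.15, 28.4, 20.2 and 25.8. The lowest paused value was above the highest control value (log2 change 0.76, SE 0.26, limma-trend adjusted p = 0.0405). At 48570121 the control values were 37.0, 26.3, 33.9 and 39.7 and the paused values 50.8, 63.1, 46.55 and 44.5, again apart (log2 change 0.57, SE 0.19, limma-trend adjusted p = 0.0333). Outside the gene, the third, at 47562374, lies 18.2 kb below its lower end. It had control values of 84.0, 82.4, 106.7 and 104.3 and paused values of 122.3, 113.6, 138.1 and 115.99 (log2 change 0.38, SE 0.13, limma-trend adjusted p = 0.0495). With pseudocount 0.1 in place of 1, its limma-trend adjusted p was 0.0511, and with no filter 0.0508. None of the 3 was called in edgeR or DESeq2 on the recovered reads with their own scaling, or without control replicate 1, control replicate 2 or paused replicate 2. The remaining 9 tested peaks of Csmd3 had changes from -0.63 to 0.41. The highest of these, at 47973994, had means of 65.5 and 88.0 and a limma-trend adjusted p of 0.0602.

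None of the peaks nearest to the ends of the genes was called. At the upper end of Csmd1 the peak from 17535231 to 17535431 had its centre 54 bp inside the gene and means of 61.5 ± 10.2 and 76.4 ± 7.63 (SD, n = 4), a log2 change of 0.32 with an SE of 0.15 (limma-trend adjusted p = 0.163). At its lower end the nearest peak, 4017 bp inside, had means of 25.3 and 26.4 (log2 change 0.07, SE 0.23), and its direction turned around in edgeR with TMM (-0.08). The peak nearest to the lower end of Csmd2, 1798 bp outside the gene and inside CK137956, had control values of 68.1, 68.1, 50.8 and 52.9 and paused values of 84.2, 86.75, 63.6 and 80.8 (log2 change 0.39, SE 0.15). Paused replicate 3 lay below control replicates 1 and 2, and without it the change was 0.49 and the peak was called. The peak 3448 bp from its upper end had means of 14.5 and 16.9 (log2 change 0.24, SE 0.32), and its direction turned around in edgeR with TMM (-0.03).

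Around the upper end of Csmd3 there were 3 peaks with unlike values. The strongest, 397 bp outside the gene and inside Gm34336, had means of 108 ± 14.7 and 127 ± 13.9 (SD, n = 4), a log2 change of 0.23 with an SE of 0.13 (limma-trend adjusted p = 0.241). Further in, the peak at 48789748, 2710 bp inside the gene, had means of 76.1 and 87.2 (log2 change 0.18, SE 0.14). Between them, at 48791842 and 616 bp inside the gene, a weak peak had control values of 20.4, 28.7, 25.4 and 17.6 and paused values of 16.15, 12.6, 17.1 and 11.7. All 4 paused values were below the control values there, but the change of -0.63 (SE 0.27) was not called (limma-trend adjusted p = 0.111). At the lower end, the nearest peak, 9263 bp outside, had means of 108 and 100.5 (log2 change -0.10, SE 0.13, limma-trend adjusted p = 0.642). It was, with control values from 99.6 to 116.8, about as open as the strongest peaks of Csmd1 and Csmd2.

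**Figure D3:**
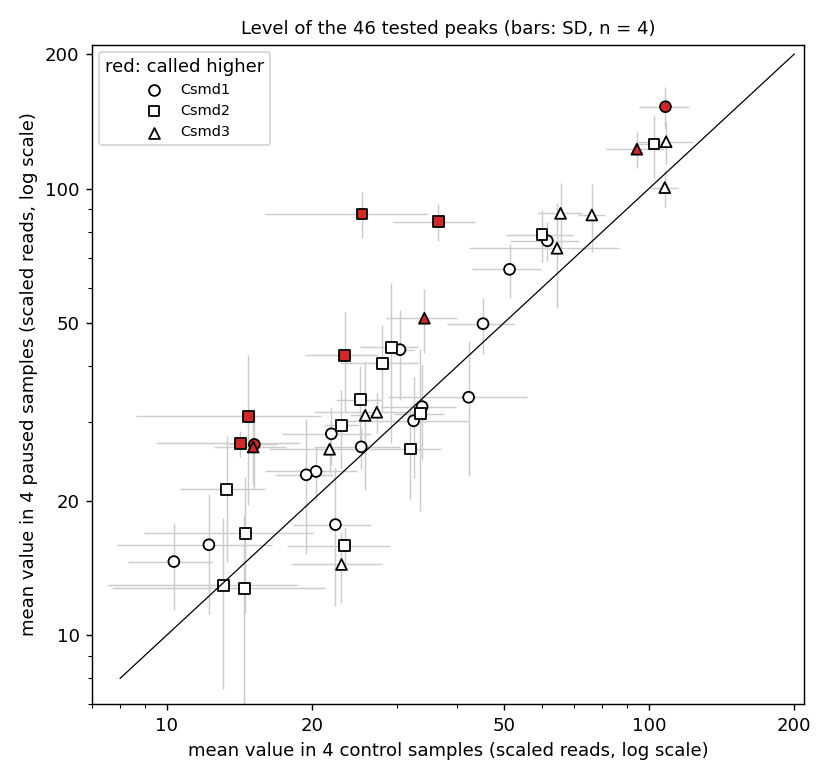
Mean value in the 4 paused samples against that in the 4 control samples for the 46 tested peaks (both axes logarithmic, bars are the SD), with a symbol for each gene, called peaks in red and a line where both are equal. The leading Csmd2 peak moved from 25.4 to 87.7, while the most open Csmd1 peak moved from 108 to 152 and the Csmd3 peak 9263 bp below the gene from 108 to 100.5.

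The median level in control samples differed between the genes. The median tested peak had a control value of 27.9 in Csmd1, 24.3 in Csmd2 and 49.3 in Csmd3. Over all tested peaks it was 33.2. The medians of the genes include their flanks. The 3 flank peaks of Csmd3 had control means of 94.4, 107.8 and 108.5. They raise its median, since no tested peak inside Csmd3 had a control mean above 76.1. Among the 164 long genes, Csmd3 was at place 16 by this median, Csmd1 at 107 and Csmd2 at 144. Among the 128 of them with at least 10 tested peaks, the places were 6, 85 and 115. All peaks have the same width, so these levels are comparable by length.

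Summed over all its peaks, the value of Csmd1 was 568, 573, 520 and 579 in control and 727, 626, 694 and 641 in paused samples, with no overlap. For Csmd2 the sums were 574, 552, 486 and 503 in control and 833, 743, 714 and 759 in paused samples, a wider separation. Those of Csmd3 were 623, 635, 715 and 748, and 759, 741, 875 and 786, where paused replicate 2 was below control replicate 4. The mean sum was 19.97% more in paused samples for Csmd1, 44.2% for Csmd2 and 16.2% for Csmd3. These sums include the flanks, which hold 1 peak of Csmd1, 4 of Csmd2, all inside other genes, and 3 of Csmd3. Over the whole table the sum was 11.5% more, and without its leading peak Csmd2 was still 34.0% more. No test was made of these sums, since the genes were chosen with the results known.

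Among other long genes Csmd2 lay near the top in its change, which is the measure that chose it. By median log2 change it was at place 4 of all 164 long genes, Csmd1 at 27 and Csmd3 at 33. By the largest single change of a gene, Csmd2 was at place 2 of the 164, after Il1rapl2 (1.87). Medians over few peaks are less certain, and among the 128 genes with at least 10 tested peaks the places by median change were 2 for Csmd2, after Ccser1 (0.48), 18 for Csmd1 and 22 for Csmd3. The other 125 of these had a middle value of 0.12 for this median, with quartiles of 0.05 and 0.18. The peaks of all 161 other long genes, 3532 of them tested, had 427 calls higher and 98 lower, so that 12.1% were called higher.

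The genes most like each member were sought over the 8 samples, using the median of log2(value + 1) over a gene's tested peaks, centred on its own mean, among long genes with at least 10 tested peaks. For Csmd1 these were Immp2l, Ptprm and Galntl6, with a root mean square difference of 0.105 to 0.112. For Csmd2 they were Camta1, Sdk1 and Naaladl2 (0.104 to 0.143), and for Csmd3 Sntg1 and the overlapping entries Gm37013 and Gm38666 (0.105 to 0.109). The members were not near each other by this measure. Csmd2 and Csmd3 differed by 0.255, Csmd1 and Csmd3 by 0.240 and Csmd1 and Csmd2 by 0.213. The median difference to all 127 genes compared was 0.206 for Csmd1, 0.228 for Csmd2 and 0.221 for Csmd3. Each pair with Csmd3 was above the medians of both its genes, and Csmd1 and Csmd2 lay between theirs.

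**Figure D4:**
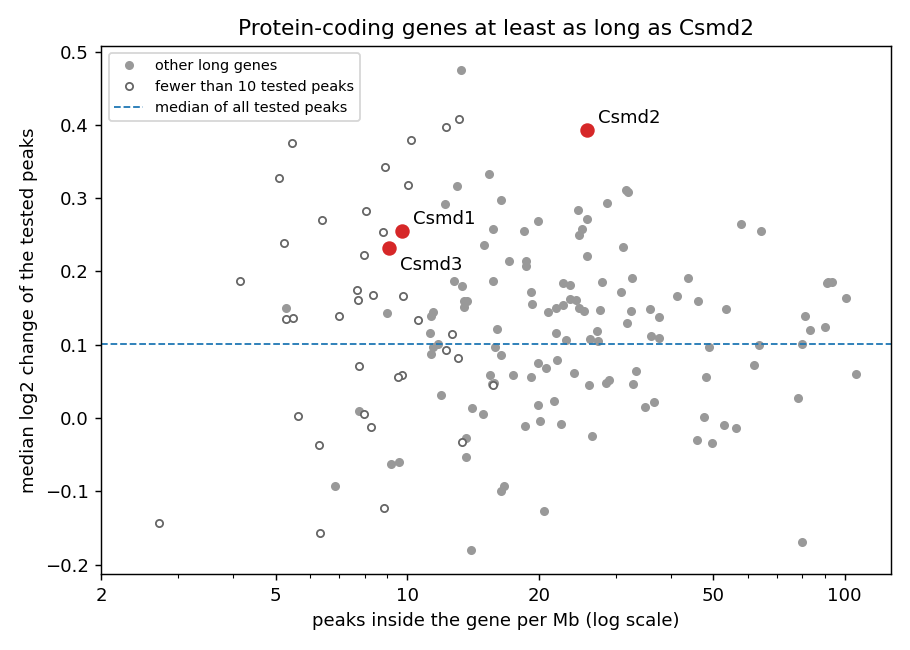
Median log2 change of the tested peaks against the number of peaks per Mb inside the gene (logarithmic axis) for 164 protein-coding genes at least as long as Csmd2, with the members in red and open circles for genes with fewer than 10 tested peaks; the dashed line is the median of all tested peaks. Csmd1 and Csmd3 sit on the sparser side with 9.74 and 9.08 peaks per Mb, with 27 genes sparser than Csmd3, and Csmd2 at 25.8 lies above the median of the others, 18.7.

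The genes that share domains or the complement cascade with the family were examined through all peaks within 20 kb of their spans. Of 40 genes of the complement pathway and its control, which had 199 tested peaks, 18 peaks were called higher and 5 lower, or 11.6%, with a median log2 change of 0.07. Of 29 other genes with sushi or CUB domains, with 295 tested peaks, 25 were called higher and 10 lower, or 11.9%, with a median of 0.13. Both shares are close to the 13.9% of all tested peaks. The rises with the smallest adjusted p in the second list were inside Sned1 (means 36.9 and 90.7, log2 change 1.27), Susd1 (49.7 and 115.6, log2 change 1.20) and Sez6l (27.5 and 67.4, log2 change 1.25), the last a neuronal gene with the same kinds of domains as the Csmd genes. In all 3 the lowest paused value was above the highest control value, and the limma-trend adjusted p was 7.91e-07, 1.09e-06 and 7.30e-06. In the complement list the rises with the smallest adjusted p lay near C5ar1, a receptor for a complement fragment (means 18.0 and 44.5, log2 change 1.30), inside Med16 near Cfd (174 and 248, log2 change 0.50) and inside Masp1, a protease of the lectin pathway (37.9 and 63.4, log2 change 0.78). The limma-trend adjusted p was 0.000544, 0.00311 and 0.00449. In DESeq2 the peaks near Cfd (adjusted p = 0.0538) and inside Masp1 (adjusted p = 0.123) were not called, nor was that near Cfd after loess correction (log2 change 0.29, limma-trend adjusted p = 0.0970).

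In the authors' deposited table, 7 of the 50 Csmd peaks have an FDR under 0.05, against 11.0% of all peaks in that table. These are 1 of Csmd1, 5 of Csmd2 and 1 of Csmd3, all higher in paused samples. The log2 fold listed in the authors' deposited table for the leading peak is 1.44, and 0.98 for the peak at 128130682. The same values underlie both analyses.

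Of the 10 calls, 2 held under all 18 alternatives, those at 128164127 and 128130682 at either end of Csmd2os. The peak at 128164127 led to the choice of the family. Every alternative used the same samples, so holding its call is no separate support. The alternatives were other filters, pseudocounts, scalings and tools, a replicate block, and each sample left out. For the peak at 128164127 the log2 change ranged from 1.53 to 1.98 and for that at 128130682 from 1.01 to 1.29. No member peak was called lower under any of these alternatives.

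**Figure D5:**
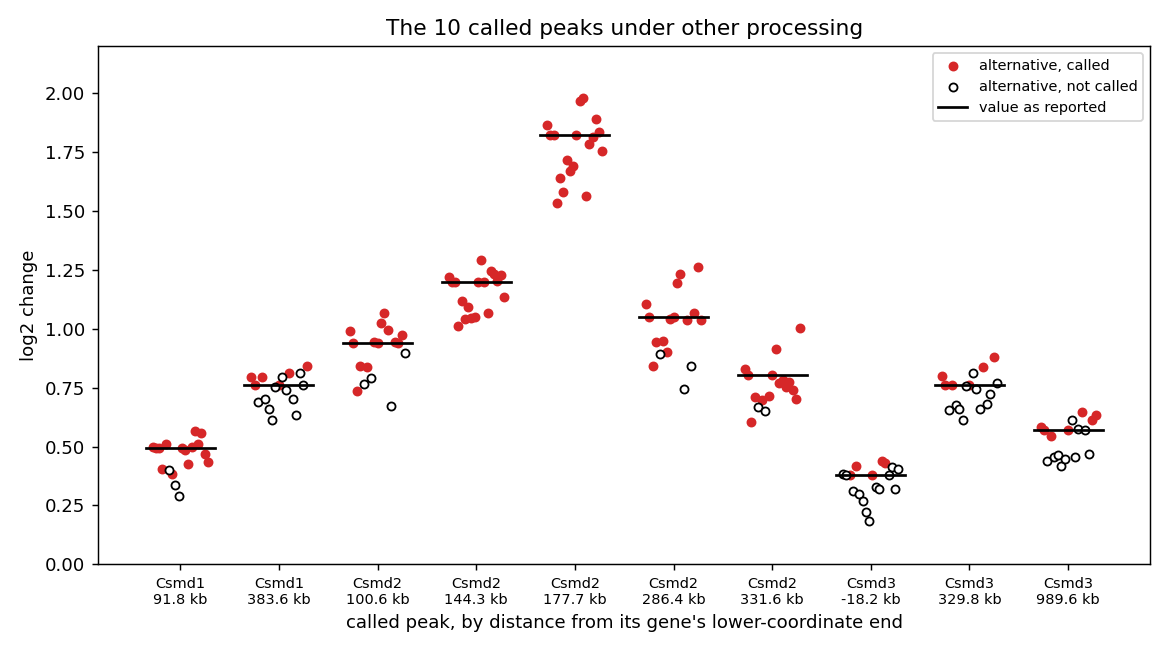
Log2 change of the 10 called peaks as reported (black lines) and under each alternative that gave a value (points, red where the peak was called), for Csmd1, Csmd2 and Csmd3. The Csmd2 peaks at 144.3 and 177.7 kb stay above 1.01 and called throughout, and all 3 Csmd3 peaks lose their call under several alternatives.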

How the data were processed

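ATAC-seq of 4 control and 4 paused E14 samples was deposited as 1 table of 201 bp peaks; groups come from the titles and columns were matched through the library names in the descriptions. Bowtie2 2.4.1, MACS3 3.0.3, DiffBind 3.16.0, Trim Galore, FastQC and the build mm10 are named in the submitters' processing notes; filters, the Tn5 offset and the scaling are not given in the sources used here. Each sample's deposited column is a signal, its reads divided by a single factor: 100% were whole multiples of 1 step within 0.006. The authors also deposited log2 means and a log2 fold, and p-values with FDR, used only where named. Per-sample columns left unused: 0.

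Only peaks whose mean reached 10 were tested with limma-trend (limma 3.58.1, R 4.3.3) on log2(value + 1), which understates changes of weak peaks; SE is that of the moderated fit. Alternatives were edgeR 4.0.16 and DESeq2 1.42.0 on the recovered reads, other scalings, filters and pseudocounts, a block on the replicate number, other windows, and each sample left out. Genes came from a RefSeq table of GRCm38.p6, read as the same build. Named peaks were, per gene, those nearest each end, the 3 strongest, and up to 5 largest rises and 3 largest falls among calls, with the 3 smallest adjusted p in each list and the 3 most alike long genes; other peaks are named where they bound a count. The members, lists and tests were chosen with earlier results of these data known. Reads copied by PCR are not independent, so limits from read counts cover counting only.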

Additional observations from a re-analysis of the deposited data

Results flagged for a closer look

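Among 42 groups of 4 values (the 18 named peaks and the summed value of each gene, in control and paused samples), 2 contained a single outlying sample by Dixon's test at the 95% level, which sets the distance to the nearest other sample against the spread of all 4. Chance flags about 1 in 20 groups. At the Csmd1 peak at 16686229, paused replicate 1 had a value of 79.6 and the other 3 paused samples lay between 59.9 and 62.1 (distance over spread 0.891). At the Csmd2 peak at 128318049, control replicate 1, the deepest library, had a value of 29.4 and the other 3 control samples lay between 20.6 and 22.0 (distance over spread 0.837).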

How the results depend on the processing

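The values under the alternatives were counted for the named peaks of the Csmd genes and of the 2 lists together. Of these values, 353 kept direction and stayed called or stayed uncalled, 60 lost the call, 1 gained it and 7 changed direction. The whole table had 17660 calls, 79.0% higher, against 10487 with a mean of at least 50 reads, 5794 in DESeq2 (67.3% higher), 10956 after loess correction (59.3%) and 11567 to 15806 with 1 sample left out, lowest without paused replicate 4. The share higher was 56.3% in edgeR with TMM, 57.4% in limma-trend after TMM rescaling and 45.7% scaled to total reads. Csmd1 went from 2 calls to 1 with a mean of at least 50 reads, in edgeR with TMM and after TMM rescaling, 0 in DESeq2, scaled to total reads and after loess, and 1 to 2 with 1 sample left out. Csmd2 went from 5 to 2 with a mean of at least 50 reads and in DESeq2, 3 scaled to total reads, and 4 to 7 with 1 sample left out, and its median change from 0.39 to 0.80 with a mean of at least 50 reads, where fewer peaks are tested. Csmd3 went from 3 to 0 in edgeR with TMM, DESeq2, after TMM rescaling, scaled to total reads and after loess, and 0 to 3 with 1 sample left out (0 without control replicate 1, control replicate 2 or paused replicate 2, and 1 without paused replicate 1 or 4). The Csmd1 peak at 15896455 turned from 0.07 to -0.0772 in edgeR with TMM, -0.0658 in DESeq2, -0.0300 after TMM rescaling and -0.0763 scaled to total reads, and lay between -0.0587 (without control replicate 3) and 0.174 with 1 sample left out. The Csmd2 peak at 128564112 turned from 0.24 to -0.0305 in edgeR with TMM, and lay between -0.0592 (without control replicate 3) and 0.398 with 1 sample left out. Apart from those named, the cause of these differences was not tested. Counting only peaks inside the gene spans gave 2 calls in Csmd1, 5 in Csmd2 and 2 in Csmd3, all higher. The median changes were then 0.19, 0.45 and 0.23. A window of 50 kb gave 3, 6 and 3 calls, of which 1 in Csmd2 was lower, and median changes of 0.29, 0.28 and 0.23. With a block on the replicate number the calls were 21994 over the whole table, 2 in Csmd1, 5 in Csmd2 and 4 in Csmd3. At each peak the mean of the group was subtracted from the log2 values. These deviations correlated by 0.0358 to 0.133 between same-numbered control and paused samples. Of the 8 samples, 6 correlated best with their own number in the other group. The numbers may therefore pair the samples. The titles do not say so, and the fit without a block was kept as the main one. Weak peaks rest on few reads, at the fewest 4 in a tested member peak.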
